A study of Mus musculus with 4 samples.

Results

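The genes of 10 glycolytic enzymes, Gapdh, Ldha, Pgk1, Aldoa, Pgam1, Eno1, Tpi1, Pkm, Gpi1 and Pfkl, were followed in lungs of bleomycin-treated A/J mice. They were taken by the gene symbol that the platform's annotation gives each probe, and a gene was kept with values for at least 3 of the 4 mice. This left 8 of the 10 genes, among 8384 genes tested in all. No probe carried the symbol of Eno1 or Gpi1 in the annotation used, so these 2 enzymes were not analysed here. That annotation did not list 2557 of the 17280 spots. The 8 genes had 41 probes, of which 38 had values for at least 3 mice. Gapdh and Ldha had 17 probes each and Pfkl had 2. The other 5 enzymes rested on 1 probe each, and all 5 passed the requirement.

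The tested samples were the lungs of 4 A/J mice, an inbred strain, each given bleomycin, a DNA-damaging drug used to injure the lung. Amplified RNA of each mouse was hybridised on a 2-colour array of its own together with amplified RNA that had been pooled from lungs of control mice of the strain A/J, the only other group. Neither dose, route, time after treatment, age and sex of the mice, nor the number of mice in the pool is given in the sources used here. Each value is the deposited log ratio of the 2 channels, centred here on the median of its array. The logarithm's base, not stated, was read as 2, so that fold sizes hold under that reading alone. Which RNA is on top of the ratio is not stated either. Genes are therefore given as above or below 0, and all signs would turn if the pool were on top. A ratio carries no level, so the lung label could not be checked against marker levels, and enzymes could not be ranked by abundance.

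Glycolysis turns glucose into pyruvate in the cytosol and yields energy without oxygen, and lactate dehydrogenase then converts pyruvate to lactate. Many of its genes are induced by hypoxia-inducible factor 1, whose oxygen-regulated subunit is encoded by Hif1a. In the lung, alveolar epithelium, activated macrophages, neutrophils and fibroblasts all use the pathway, and Gapdh is widely taken as a reference gene that is assumed to be stable. Striated muscle has abundant glycolytic enzymes too, partly as isoenzymes of its own such as Eno3 and Pgam2. In a whole lung, fewer cells of a type and less RNA per cell cannot be told apart.

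The promoters of 4 enzymes are shown because 2 of them, Pkm and Pgam1, passed the test described below and the other 2, Gapdh and Ldha, were measured on many spots. Each line holds the 250 bases before a transcription start in the sense of the gene, from RefSeq (build GRCm38.p6), 5′ to 3′. Where RefSeq lists several starts, the one farthest upstream in that table is shown. The annotated genes of Gapdh and Ldha begin 694 and 3530 bases farther upstream than the starts shown, where the table holds no window. Capitals mark the core letters of the hypoxia response element, ACGTG or GCGTG on either strand, and overlapping matches merge into 1 stretch.
Pkm (chr9:59656326-59656575, plus strand): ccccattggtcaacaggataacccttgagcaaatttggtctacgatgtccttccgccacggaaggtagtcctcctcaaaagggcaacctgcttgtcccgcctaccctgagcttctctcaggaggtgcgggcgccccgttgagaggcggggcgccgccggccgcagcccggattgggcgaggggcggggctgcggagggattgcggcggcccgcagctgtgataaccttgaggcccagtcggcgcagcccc
Pgam1 (chr19:41911621-41911870, plus strand): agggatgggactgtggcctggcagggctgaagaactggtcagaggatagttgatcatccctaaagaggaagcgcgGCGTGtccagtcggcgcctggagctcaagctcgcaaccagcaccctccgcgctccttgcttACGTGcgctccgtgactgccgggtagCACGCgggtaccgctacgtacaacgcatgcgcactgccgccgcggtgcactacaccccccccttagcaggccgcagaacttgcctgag
Gapdh (chr6:125165774-125166023, minus strand): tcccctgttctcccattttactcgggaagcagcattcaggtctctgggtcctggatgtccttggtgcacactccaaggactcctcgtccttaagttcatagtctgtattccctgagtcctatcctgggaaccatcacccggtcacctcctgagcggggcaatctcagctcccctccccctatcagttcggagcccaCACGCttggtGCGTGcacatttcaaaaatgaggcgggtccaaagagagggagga
Ldha (chr7:46845554-46845803, plus strand): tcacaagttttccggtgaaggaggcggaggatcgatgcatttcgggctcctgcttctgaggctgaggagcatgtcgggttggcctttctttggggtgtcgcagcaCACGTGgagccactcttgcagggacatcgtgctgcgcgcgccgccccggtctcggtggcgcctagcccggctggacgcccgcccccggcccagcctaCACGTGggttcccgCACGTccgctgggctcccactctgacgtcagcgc

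The printed windows of Gapdh, Ldha and Pgam1 hold 2, 3 and 3 such stretches, and that of Pkm holds 0, although another Pkm start in the table has 1. Over all 16 windows of the 10 enzymes, 12 held a core, and 8 of the 10 genes had one in some window. Windows of nearby starts of Aldoa and of Eno1 overlap and share their cores, so the 12 windows count some cores more than once. Of all 32851 windows in the table, 38.6% held a core, and of 27025 genes 41.5% had one in some window. The enzymes had more windows per gene than the table as a whole. The windows of the enzymes were also richer in G and C, with a median of 62.2% against 52.4% over all windows, and both cores are rich in these bases. A match of letters is a description and shows no binding, which the arrays did not measure.

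Pkm and Pgam1, which act late in the pathway, were the enzymes that passed the test, both below 0 in all 4 mice. Pkm encodes pyruvate kinase, which makes pyruvate and ATP in the last step. Its log2 ratios were -1.04, -0.78, -0.65 and -0.38 in mice 1, 2, 3 and 4. All lay below 0, with mouse 1 farthest and mouse 4 nearest. The mean was -0.71 ± 0.27 (SD, n = 4), a 1.64-fold difference (95% interval -0.998 to -0.43, limma adjusted p = 0.0213). Pgam1 encodes the phosphoglycerate mutase that moves the phosphate before the enolase step. Its log2 ratios were -0.73, -0.46, -0.93 and -0.39 in mice 1 to 4, all below 0 and farthest from it in mouse 3. The mean was -0.63 ± 0.25 (SD, n = 4), a 1.55-fold difference (95% interval -0.89 to -0.37, limma adjusted p = 0.0238). The Pkm probe does not tell the M1 and M2 splice forms of pyruvate kinase apart as far as the annotation goes.

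Of the 8 enzymes, 2 thus passed below 0, where 4.81% of all genes did, and 0 passed above 0, where 7.69% of all genes did. Before adjustment, p was under 0.05 for the same 2 of 8 enzymes, against 31.8% of all genes. Counted by probe, 2 of 38 likewise passed below 0, against 4.75% of all 9909 probes, and 0 above 0, against 8.09%. The median of the 8 gene means was -0.09, beside 0.0015 over all genes. The 2 calls rested on all 4 mice. Leaving out mouse 1, 2 or 3 lost the call of Pkm and leaving out mouse 1, 3 or 4 that of Pgam1 (limma adjusted p up to 0.0774). With mice 1 and 2, and mice 3 and 4, treated as 2 correlated pairs, Pkm passed (limma adjusted p = 0.0412) and Pgam1 did not (limma adjusted p = 0.0592).

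**Figure D1:**
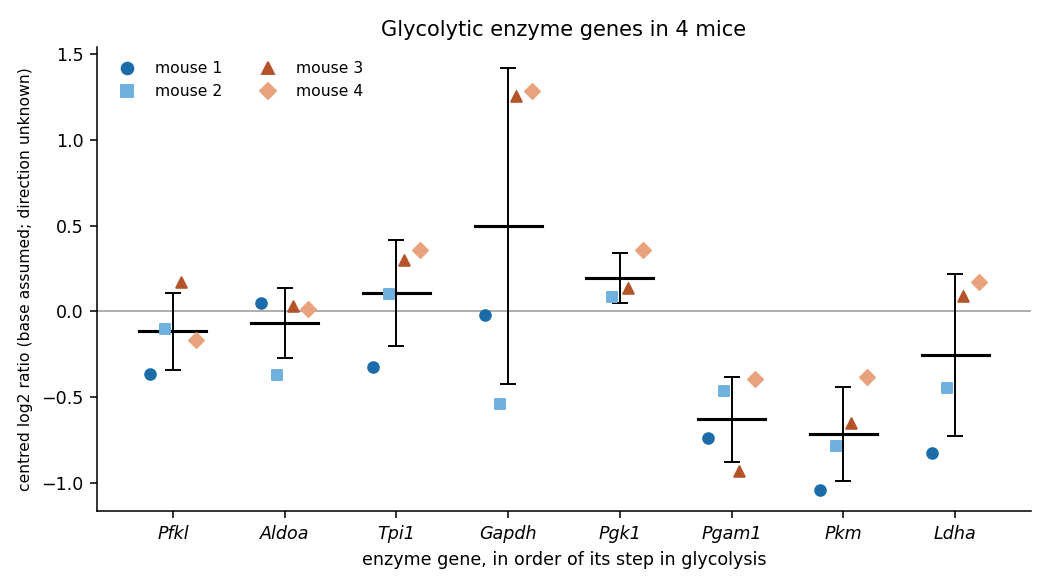
Centred log2 ratio of treated mouse and control pool (vertical axis, base assumed and direction unknown) for 8 enzyme genes in the order of their steps in glycolysis (horizontal axis). Symbols are the 4 mice, long bars the means and error bars the SD between mice. Pgam1 and Pkm lie below 0 in all 4 mice, and Gapdh has the widest spread, from -0.54 in mouse 2 to 1.29 in mouse 4.

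Gapdh encodes the dehydrogenase that oxidises glyceraldehyde 3-phosphate, the step that reduces NAD+. Averaged over its probes, its log2 ratio was -0.02, -0.54, 1.26 and 1.29 in mice 1, 2, 3 and 4. It was near 0 in mouse 1, below it in mouse 2 and far above it in mice 3 and 4. The mean of 0.50 ± 0.92 (SD, n = 4) did not pass (95% interval -0.33 to 1.32, limma adjusted p = 0.359). The SD between mice was larger than that of 98.9% of the 6057 genes with 4 values. Relative to the median of each array, this reference gene spanned 1.82 log2 units between mouse 4 and mouse 2.

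In mouse 1 the 15 Gapdh probes with a value ran between -0.31 and 0.23, and in mouse 2 between -0.77 and -0.09. In mouse 3 they ran between 0.43 and 1.75, and in mouse 4 between 0.39 and 1.83. On all 14 probes with 4 values, both mouse 3 and mouse 4 lay above both mouse 1 and mouse 2. The SD over probes was 0.161, 0.238, 0.389 and 0.479 in mice 1 to 4, and the probe ranges of mice 3 and 4 overlapped. The probes also differed in size among themselves: the first 3 in table order had means of 0.06, 0.23 and 0.10, whereas the 2 highest, the 4th and the 11th, had 0.72 and 0.70. These 3 lower probes reached at most 0.97 in mouse 3 and 0.85 in mouse 4. Of the 17 probes, 1 had a value in mice 1 and 2 alone, 1 in mice 3 and 4 alone and 1 in no mouse. None of the 14 tested probes passed limma or had an unadjusted p under 0.05 (31.3% of all probes had one), with adjusted p between 0.213 and 0.892. The mouse genome holds many processed copies of Gapdh, and whether other transcripts bound to these probes was not tested.

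Ldha encodes the A subunit of lactate dehydrogenase, the form that prevails in muscle and in tissue short of oxygen. Its log2 ratio, averaged over the 17 probes, was -0.83, -0.45, 0.09 and 0.17 in mice 1, 2, 3 and 4. Mice 1 and 2 lay below 0 and mice 3 and 4 slightly above it. The mean of -0.25 ± 0.47 (SD, n = 4) did not pass (95% interval -0.69 to 0.19, limma adjusted p = 0.377), and its SD was larger than that of 91.1% of genes with 4 values. Without mouse 1 the mean was -0.06, the weakest of the 4 fits with a mouse left out. Across its probes, Ldha ran between -1.09 and -0.26 in mouse 1, between -1.03 and -0.09 in mouse 2, between -0.23 and 0.41 in mouse 3 and between -0.12 and 0.48 in mouse 4. On all 17 probes, both mouse 3 and mouse 4 lay above both mouse 1 and mouse 2.

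Some neighbouring probes of Ldha in the table had similar values. The 9th to 11th stood above the rest in mouse 1, at -0.26, -0.55 and -0.53, while the first 8 lay between -1.04 and -0.88 there. The same 3 probes had means of 0.09, -0.10 and -0.02 over the mice and were the 3 highest of the gene. The lowest were the 17th, at -0.44, and the 4th, at -0.36. The 9th probe alone had a mean above 0. SDs over probes were 0.217, 0.230, 0.168 and 0.135 in mice 1 to 4. None of the 17 probes passed limma or had an unadjusted p under 0.05, with adjusted p between 0.207 and 0.947. All 17 probes carry the same accession in the annotation. Whether they share 1 sequence is not given in the sources used here, and they are no replicates of the treatment.

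**Figure D2:**
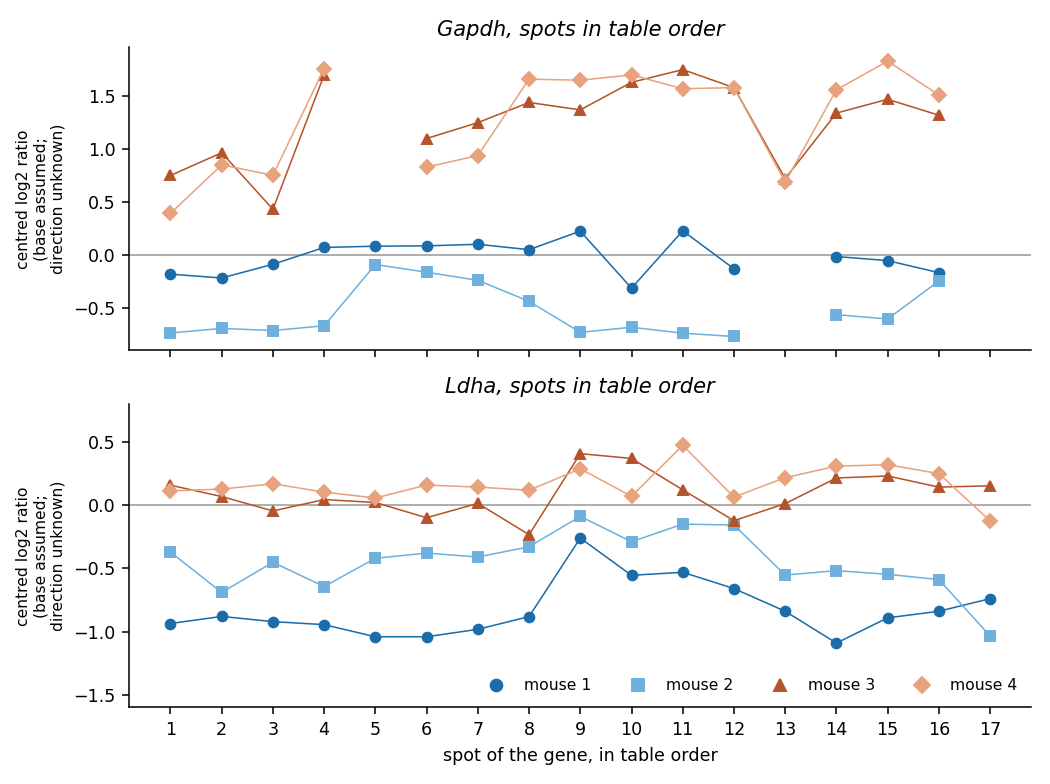
Centred log2 ratio (vertical axes, base assumed and direction unknown) of each of the 17 probes of Gapdh (top) and Ldha (bottom) in table order, with 1 line per mouse and gaps where the table is empty. The lines of mice 3 and 4 lie above those of mice 1 and 2 on all 14 Gapdh probes with 4 values and on all 17 Ldha probes.

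The other 4 enzymes lay closer to 0. Pfkl, the liver-type subunit of phosphofructokinase, which commits sugar to the pathway, had log2 ratios of -0.37, -0.10, 0.17 and -0.17 in mice 1 to 4 (mean -0.12 ± 0.22, SD, n = 4, limma adjusted p = 0.465). Its 2 probes differed in mouse 2, at 0.23 and -0.44, and only the first had a value in mouse 3. Aldoa, the aldolase that splits the 6-carbon sugar, had -0.37 in mouse 2 and between 0.02 and 0.05 in the other mice, with a mean of -0.07 ± 0.20 (SD, n = 4, limma adjusted p = 0.655). Without mouse 2 its mean was 0.03.

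Tpi1 encodes the isomerase that joins both products of the aldolase into 1 stream. Its log2 ratios of -0.33, 0.10, 0.30 and 0.36 in mice 1 to 4 lay on both sides of 0 (mean 0.11 ± 0.31, SD, n = 4, limma adjusted p = 0.594). Pgk1, the X-linked phosphoglycerate kinase that makes the first ATP of the payoff phase, had 0.09, 0.14 and 0.36 in mice 2, 3 and 4 and no value in mouse 1. It was the one enzyme above 0 on every array with a value, but its mean of 0.19 ± 0.14 (SD, n = 3, limma adjusted p = 0.225) missed the threshold. These intervals all contained 0. That of Pgk1 reached from -0.05 to 0.43 and that of Tpi1 from -0.20 to 0.42, so that a difference of the size seen for Pgam1 lay outside both. This does not show that the ratios of these enzymes were 0.

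Ordered by their means, the enzymes ran Pkm, Pgam1, Ldha, Pfkl, Aldoa, Tpi1, Pgk1 and Gapdh, from -0.71 to 0.50. None of the 7 steps between neighbours exceeded the larger of the 2 SDs, 0 of 7, so the order of neighbours was not resolved by this rule. The rule does not speak to enzymes farther apart. Pkm and Pgam1 lay below Tpi1 in all 4 mice, and their intervals lay wholly below those of Tpi1 and Pgk1. The largest step was 0.38, between Pgam1 and Ldha.

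The values of the enzymes in the 2 pairs of mice were also compared. Of the 7 enzymes with 4 values, Gapdh, Ldha, Tpi1 and Pkm had mice 3 and 4 both above mice 1 and 2, which 31.9% of all genes with 4 values did. None of the 7 had mice 3 and 4 both below mice 1 and 2, which 22.5% of genes did. The arrays of mice 3 and 4 correlated at 0.86 over 6057 genes and those of mice 1 and 2 at 0.72, against 0.44 to 0.56 for the other pairs. All 4 arrays share the pool, and genes are not independent replicates. The labels give no batch for these pairs, and whether the pairs reflect the mice or the hybridisations was not tested. Within the pairs, the mean of Gapdh was 1.27 in mice 3 and 4 and -0.28 in mice 1 and 2, that of Ldha 0.13 and -0.64, and that of Pkm -0.52 and -0.91. The Gapdh and Ldha means thus lay on opposite sides of 0 in the 2 pairs, whereas that of Pkm was below 0 in both. Pgam1 had pair means of -0.66 in mice 3 and 4 and -0.60 in mice 1 and 2.

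On this platform 10 genes had 17 probes, which allowed the spread of Gapdh and Ldha to be set beside 8 other genes. Gapdh had the largest SD between mice of the 10, at 0.92, followed by the heat shock gene Hspa1a at 0.66 and Ldha at 0.47. Nup62, a nuclear pore gene, had mice 3 and 4 at 0.79 and 0.61 and mice 1 and 2 at -0.00 and -0.05, the same arrangement as in Gapdh. Eif4a2, a translation factor gene, was by contrast between 0.83 and 1.15 in all 4 mice, with a mean of 0.98 ± 0.14 (SD, n = 4, limma adjusted p = 0.00653), and all 17 of its probes passed. Wide spread between mice was therefore not shared by all genes measured on many probes.

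**Figure D3:**
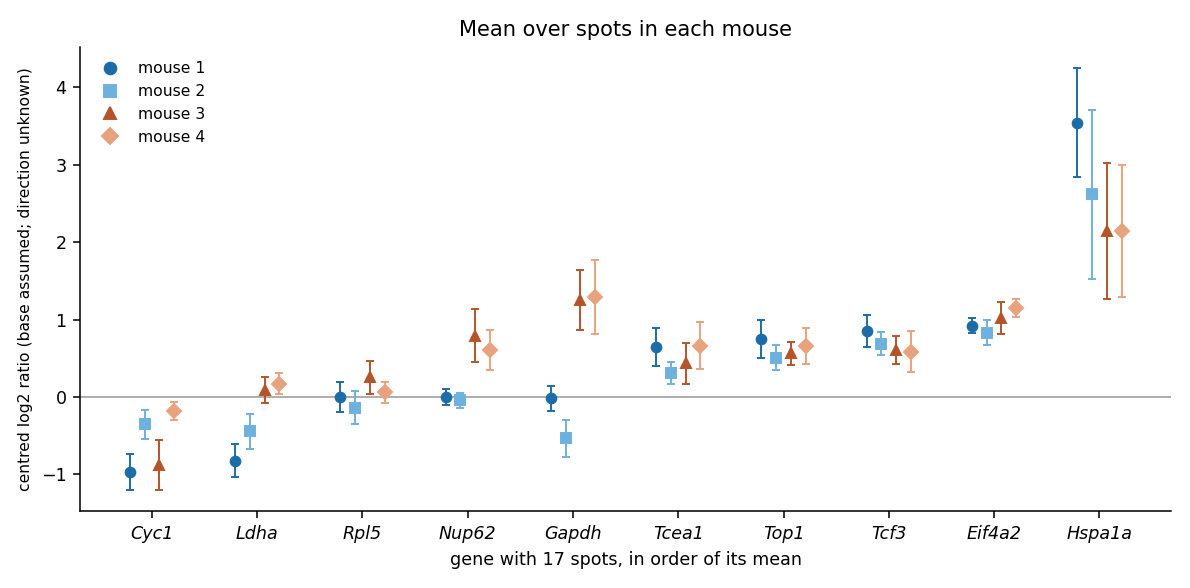
Mean over spots of each of the 10 genes with 17 spots in each mouse (vertical axis, centred log2 ratio, base assumed and direction unknown). Error bars are the SD over spots in that mouse. Gapdh shows a gap between mice 3 and 4, at 1.26 and 1.29, and mice 1 and 2, at or below 0, while Eif4a2 sits between 0.83 and 1.15 in all mice.

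The isoenzymes outside the list of 10 gave 1 gene past the test of 12 tested, Hk1, while 16 of the 21 listed had a probe. It passed below 0, where 4.81% of all genes did. Hk1 encodes the hexokinase of most tissues, which traps glucose in the first step. Its log2 ratios were -0.61, -1.23, -1.87 and -0.92 in mice 1 to 4, all below 0, with a mean of -1.16 ± 0.54 (SD, n = 4, limma adjusted p = 0.0248), farther from 0 than the mean of any of the 8 enzymes. Leaving out mouse 2 or 4 lost the call (limma adjusted p up to 0.0667), and so did a fit with the pairs as a block (limma adjusted p = 0.0571). Hk2, the inducible hexokinase, had a mean of -0.12 ± 0.23 (SD, n = 4).

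The muscle isoenzymes had some of the lowest means but differed widely between mice. Eno3, the enolase of muscle, had -2.16, -0.84 and -0.37 in mice 1, 2 and 4 (mean -1.12 ± 0.93, SD, n = 3, limma adjusted p = 0.108). Pgam2, the mutase of muscle, had -2.18, -0.47, -0.97 and -0.25 in mice 1 to 4 (mean -0.97 ± 0.86, SD, n = 4, limma adjusted p = 0.101). Both were farthest below 0 in mouse 1. So was the list of striated muscle markers by its median. Of its 27 tested genes 7 passed below 0, where 4.81% of all genes did, and 0 above. With the pairs as a block 2 passed below 0, in a fit that called 402 genes in all, against 1048. The count was 2 without mouse 3 or 4, 3 without mouse 1 and 8 without mouse 2. The medians of the list were -2.60, -0.69, -0.28 and -0.87 in mice 1 to 4, and the median of its gene means was -1.30. Tnnc2 and Myl1 had the lowest means of the list, -4.90 and -2.91. Of the 7 that passed, Myl1 and Ldb3 were lowest in mouse 1, and Hrc, Cox7a1, Cox8b and Nppb in mouse 3. Tnnc2 was lowest in mouse 2 and had no value in mouse 3. Of the enzymes, Pkm, Ldha, Pfkl and Tpi1 were lowest in mouse 1, Pgam1 in mouse 3, and Gapdh and Aldoa in mouse 2. Pgk1 had no value in mouse 1. The part that muscle RNA has in the enzyme ratios was not tested.

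Of the remaining isoenzymes, Ldhb, the heart-type subunit of lactate dehydrogenase, was below 0 in mice 3 and 4, at -1.28 and -0.72, and near it in mice 1 and 2, at -0.19 and 0.16. This is the reverse arrangement of that of Ldha, with no call for its mean of -0.51 ± 0.63 (SD, n = 4, limma adjusted p = 0.196). Bpgm, which makes the 2,3-bisphosphoglycerate of red cells, had a mean of 0.48 ± 0.38 (SD, n = 3, limma adjusted p = 0.119). Aldoc, Gapdhs and Pgk2 had means of -0.25, -0.35 and -0.16, and Eno2, Pfkp and Ldhc of -0.03, 0.09 and 0.19. Gapdhs, Pgk2 and Ldhc are best known from the testis.

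Among regulators of flux, 1 of 5 tested genes passed, above 0, where 7.69% of all genes did. This was Pfkfb3, whose product makes fructose 2,6-bisphosphate, the strongest activator of phosphofructokinase. Its log2 ratios were 1.06, 0.17, 0.81 and 1.02 in mice 1 to 4, all above 0 and lowest in mouse 2 (mean 0.77 ± 0.41, SD, n = 4, limma adjusted p = 0.0370). Leaving out mouse 1, 3 or 4 lost the call (limma adjusted p up to 0.113), as did the fit with the pairs as a block (limma adjusted p = 0.0852). Pfkfb2, a second gene of that family, had a mean of -0.28 ± 0.15 (SD, n = 4, limma adjusted p = 0.0735). Minpp1 had 1.41, 0.76 and 0.19 in mice 1, 2 and 4 and did not pass, nor did Pgp at 0.09 or Adpgk at -0.25.

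Among transporters of glucose and lactate, 1 of 12 tested genes passed, below 0, where 4.81% of all genes did. Slc16a3, the monocarboxylate transporter that exports lactate from glycolytic cells, had log2 ratios of -0.74, -0.66, -0.20 and -0.45 in mice 1 to 4 (mean -0.51 ± 0.24, SD, n = 4, limma adjusted p = 0.0355). All 4 mice lay below 0, and leaving out mouse 1, 2 or 4 lost the call (limma adjusted p up to 0.102), as did the fit with the pairs as a block (limma adjusted p = 0.0636). Slc2a4, the insulin-responsive glucose carrier of muscle and fat, had -1.15, 0.00, -1.43 and -0.42 (mean -0.75 ± 0.66, SD, n = 4, limma adjusted p = 0.0992). Of 9 fat cell markers tested, 3 passed below 0, where 4.81% of all genes did, and 0 above. With the pairs as a block or without mouse 1, 3 or 4 the count was 0, and without mouse 2 it was 4 below 0. Their medians were -0.52, -0.01, -0.38 and -0.38 in mice 1 to 4, and the median of their means was -0.16.

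The other carriers had means close to 0. Slc2a1, the glucose carrier of most cells, had a mean of -0.03 ± 0.24 (SD, n = 3), and Slc2a2, Slc2a3, Slc2a5, Slc2a8 and Slc2a10 lay between 0.0065 and 0.12. Slc16a1 and Slc16a7 had means of 0.09 and 0.07, and Bsg and Emb, which escort such carriers to the membrane, of 0.0083 and -0.0078. Of 8 tested genes that carry out or control the entry of pyruvate into the citric acid cycle, 0 passed limma. An unadjusted p under 0.05 was found for 0 of them, against 31.8% of all genes. Pdha1, the E1 alpha subunit of pyruvate dehydrogenase, was steady at 0.13, 0.14, 0.09 and 0.12 in mice 1 to 4. Dld was highest of them at 0.37 and Dlat lowest at -0.23, and Pdhb, Pcx, Pdk2, Pdk3 and Pdp2 lay between -0.18 and 0.13. Over these 4 lists, 37 of 57 genes were tested, and 1 passed above and 2 below 0. Of all genes, 7.69% passed above and 4.81% below 0. The median of the 37 genes was 0.0065, beside 0.0015 over all genes.

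**Figure D4:**
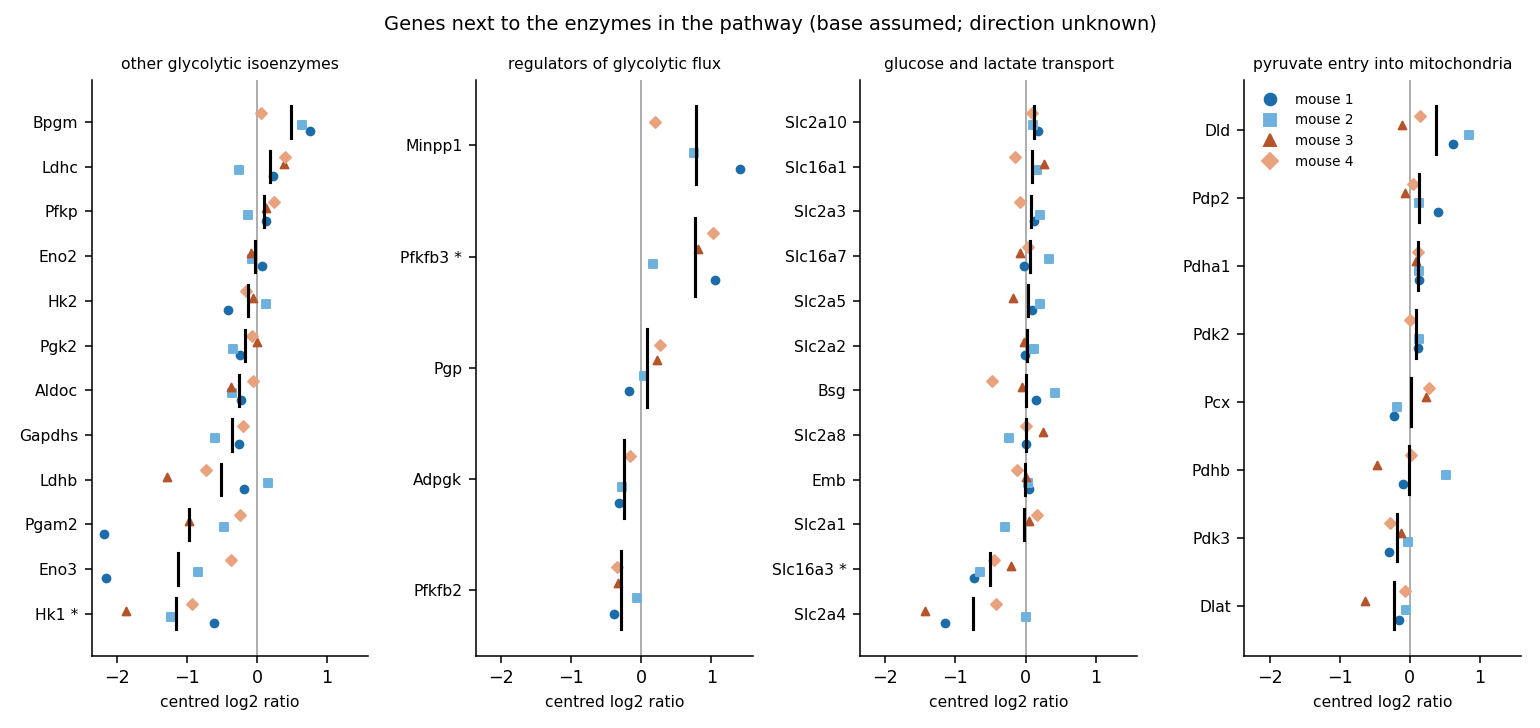
Centred log2 ratio (horizontal axes, base assumed and direction unknown) of the tested genes in 4 lists next to the enzymes, with 1 symbol per mouse and a bar at the mean. Stars mark the genes that passed limma at an adjusted p of 0.05, namely Hk1 and Slc16a3 below 0 and Pfkfb3 above it.

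Side branches of the pathway had single genes past the test, beside the 7.69% of all genes that passed above 0 and the 4.81% below. Taldo1, the transaldolase of the pentose phosphate pathway, had log2 ratios of 0.65, 0.14, 0.81 and 0.65 in mice 1 to 4 (mean 0.56 ± 0.29, SD, n = 4, limma adjusted p = 0.0395), 1 of 7 tested genes of that pathway. Fbp1, the fructose bisphosphatase of gluconeogenesis, had -0.41, -0.70 and -0.62 in mice 1, 3 and 4 (mean -0.58 ± 0.15, SD, n = 3, limma adjusted p = 0.0286), 1 of 2 tested. Gpd1, the cytosolic glycerol 3-phosphate dehydrogenase, had -0.50, -0.27, -0.78 and -0.61 (mean -0.54 ± 0.21, SD, n = 4, limma adjusted p = 0.0269), 1 of 8 genes of cytosolic redox shuttles. Leaving out mouse 1, 3 or 4 lost each of the 3 calls (limma adjusted p up to 0.120), as did the fit with the pairs as a block (up to 0.0813). Of 12 tested genes of glycogen metabolism, 0 passed limma and 3 had an unadjusted p under 0.05 (31.8% of all genes did), namely Pygl at 0.89, Pgm1 at -0.39 and Pgm2 at 0.18. These 3 were named after their values were seen.

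Of 19 tested hypoxia-inducible genes and their regulators outside glycolysis, 3 passed above 0 and 0 below, with a median of 0.03. Of all genes, 7.69% passed above 0 and 4.81% below. With the pairs as a block 1 gene of the list passed above 0, and without mouse 3 or 4 the count was 0. Hif1a was alike in all mice, with log2 ratios of 0.33, 0.36, 0.37 and 0.29 in mice 1 to 4 and a mean of 0.34 ± 0.04 (SD, n = 4, limma adjusted p = 0.0259). P4ha2, a prolyl hydroxylase of collagen, had 1.08, 0.57, 0.68 and 0.49 (mean 0.70 ± 0.26, SD, n = 4, limma adjusted p = 0.0201). The other was Pfkfb3, which like Slc2a1 stood on this list too, so that its call is counted in both lists. Hif1a missed the threshold whichever mouse was left out and with the pairs as a block (limma adjusted p up to 0.0857), and P4ha2 without mouse 3 or 4 (limma adjusted p up to 0.0627). Vegfa, Bnip3 and Adm, common targets of the factor, had means of 0.28, 0.29 and -0.12 and did not pass.

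Gapdh and Pgk1 also belong to the genes often used as references. Of 12 such genes tested, 2 passed above 0, where 7.69% of all genes did, and 0 below. They were Eef1a1 at 1.37 ± 0.71 and Ywhaz at 0.69 ± 0.39 (SD, n = 4, limma adjusted p = 0.0298 and 0.0412). Neither passed with the pairs as a block (limma adjusted p = 0.0534 and 0.0607). Ywhaz missed the threshold whichever mouse was left out (limma adjusted p up to 0.121), and Eef1a1 without mouse 1 or 4 (limma adjusted p up to 0.0899). Tfrc and Tbp were the steadiest with 4 values, with SDs of 0.06 and 0.11 between mice, against 0.92 for Gapdh. Ppia was below 0 in mice 1, 2 and 4, at -0.98, -0.999 and -0.34, and at 0.04 in mouse 3.

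The genes whose 4 values lay closest to those of Gapdh, among 6050 others, were Mtx1, Csf2rb2, Irgm2 and Fstl1, with root mean square differences of 0.160 to 0.218 log2 units. Mtx1, the nearest, had -0.24, -0.53, 1.48 and 1.28 in mice 1 to 4. For Ldha they were Dio2, Plxnb2, Npepps and Cmc2, at 0.0747 to 0.101, of which Dio2 had -0.74, -0.56, 0.05 and 0.17. With 4 arrays such nearness is a description of these values alone.

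Markers of other cells in lung tissue are given for the same arrays, beside the 7.69% of all genes that passed above 0 and the 4.81% below. Of 8 endothelial markers tested, 6 passed above 0 and 0 below, also with the pairs as a block, and the median of their means was 0.97. Without mouse 4 the count of endothelial markers was 4. Of 8 alveolar type II markers 1 passed above 0 (median 0.31), and of 9 fibroblast markers 1 above 0 (median 0.16), each with the block too. Of 8 macrophage markers 3 passed above 0 and 2 with the block, the median of the list was 0.04, and Marco and Itgax, named after their values were seen, had means of -0.49 and -0.31. Without mouse 3 or 4 the count of macrophage markers was 0. Of 6 neutrophil markers 2 passed below 0, S100a8 at -2.28 and S100a9 at -2.08, with a median of -0.24 over the list, and 1 passed without mouse 4. Of 4 red blood cell markers 1 passed above 0, and 0 whichever mouse was left out. Of 15 cell cycle genes 0 passed limma, and 3 had an unadjusted p under 0.05, against 31.8% of all genes. The medians of the cell cycle genes were 0.03 and -0.01 in mice 3 and 4 and -0.39 and -0.49 in mice 1 and 2. The part of cell makeup in the enzyme ratios was not tested.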

How the data were processed

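The authors deposited 1 value per spot for each of 4 two-colour arrays, a log ratio of treated mouse and control pool that was read here as log2. The lowest of 17280 spots' values was -6.1. Not given in the sources used here are scanner, dyes, background correction, normalization, base and direction. Of the spots, 14722 were named with 1 gene through an annotation of the platform that may be outdated, and 0 symbols changed through RefSeq gene numbers. There were 0 other columns of per-sample values.

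Each array was centred on its median, and probes of a gene were averaged on each array. Genes and probes with at least 3 values were tested against 0 with limma 3.58.1 (R 4.3.3; lmFit with an intercept, eBayes, two-sided). P-values were adjusted by Benjamini-Hochberg over the 8384 genes or the 9909 probes, with a threshold of 0.05. The script was tested on simulated data. Errors are SDs between mice, and intervals cover 95%. The 1 pool counts as 1 control sample, so the tests leave out the spread between control mice. Nothing beyond the mouse number says how the lungs were taken, and the number of arrays limits the precision. Arrays had 9427 to 12136 spots with a value, medians of -0.009 to 0.029 before centring and SDs of 0.351 to 0.486.

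The enzymes and all gene lists were chosen with earlier results of these data known. Named were the 8 enzymes, every tested gene of 4 neighbouring lists, up to 4 genes past the test with the smallest p of each other list (some markers are given as counts only), and the 4 nearest profiles to Gapdh and Ldha. Named outside this rule, with the results known, were Vegfa, Bnip3, Adm, Tfrc, Tbp, Ppia, Pygl, Pgm1, Pgm2, Marco, Itgax, Cox7a1, Cox8b and Nppb. So were Hspa1a, Nup62 and Eif4a2 among the genes with 17 probes. Alternatives were other centring and scaling, other filters, other probe summaries, robust eBayes, mouse pairs as a random block, and leaving out each mouse.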

Additional observations from a re-analysis of the deposited data

Results flagged for a closer look

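Of 52 genes with 4 values that were examined for a single far-off mouse, 2 had one, about what a rule that picks 1 in 20 groups by chance would give. Aldoa was at -0.37 in mouse 2, while the other mice lay between 0.02 and 0.05. Dlat, the acetyltransferase subunit of pyruvate dehydrogenase, was at -0.63 in mouse 3, against -0.15 to -0.06 in the other mice.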

How the results depend on the processing

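With each mouse left out in turn, the count of enzymes past the test below 0 ranged over 0 to 1, against 2 with all mice, and that of enzyme probes over 0 to 2; the counts above 0 were 0 throughout. In the 4 neighbouring lists the counts ranged over 0 to 1 above and 0 to 2 below 0. These fits hold fewer mice and called 296 to 573 genes in all, against 1048. With the mouse pairs as a random block (correlation 0.304, 402 genes in all), 1 enzyme and 1 enzyme probe passed below 0, both Pkm, and 0 genes of the neighbouring lists passed on either side. With values on at least 2 arrays, 1 enzyme probe passed above 0, the Gapdh probe with values in mice 3 and 4 alone. Pfkfb2 passed when only probes with 4 values were averaged (-0.31, limma adjusted p = 0.0378). Other centring, scaling, filters, probe summaries and robust eBayes left the counts of enzymes at 2 below and 0 above 0, and the same 4 enzymes, Gapdh, Ldha, Tpi1 and Pkm, had mice 3 and 4 above mice 1 and 2 under each of the 5 settings tried for this, added after the data were seen. Signs turned only for genes near 0 that passed in no fit. Centred on the mean, Slc2a8 was at -0.0077 and Bsg at -0.0060. With scaled arrays, Slc2a8 was at -0.00028, Bsg at -0.030 and Pdhb at 0.0069, and with quantile normalization Bsg was at -0.035 and Pdhb at 0.028. Without centring, Emb was at 0.0058 and Pdhb at 0.0050. With a mouse left out, means ranged from -0.11 to 0.033 for Aldoa, -0.078 to 0.00050 for Eno2, -0.12 to 0.11 for Slc2a1, -0.017 to 0.0535 for Slc2a2, -0.0435 to 0.15 for Slc2a5, -0.073 to 0.086 for Slc2a8, -0.023 to 0.11 for Slc16a7, -0.13 to 0.17 for Bsg, -0.025 to 0.031 for Emb, -0.18 to 0.14 for Pdhb and -0.059 to 0.11 for Pcx. The cause was not tested. No paired analysis was possible because all 4 samples form 1 group against 1 pool. Signal over background is not part of the values used, so dim spots could not be judged.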
